A study of Mus musculus with 2 samples.

Results

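The miR-29 family was examined in small RNA libraries of serum extracellular vesicles (EVs), which are particles bounded by membrane that cells shed into the circulation. Its members were chosen by name and not by any measured value, although earlier results of these data were known. They are the 3p and 5p arms cut from the hairpins of miR-29a, miR-29b and miR-29c. All 7 mature miRNAs of the family were listed in both tables, out of 1847 mature miRNAs in all, and none of them was at the floor of either table.

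The libraries are labelled as control and iFIRKO, from male mice, with 1 library per group, each prepared from the pooled serum of several mice. The iFIRKO mice carried Adipoq-CreERT2, a tamoxifen-activated Cre recombinase driven by the adiponectin promoter of adipocytes, together with floxed insulin receptor alleles (Insr flox/flox). The labels give the control genotype as WT, whereas the methods of the study describe controls with the floxed alleles and no Cre. Both groups were 7 weeks old, had tamoxifen at 100 mg/kg daily for 5 days and serum was taken on day 3 after the final dose, so the controls share the tamoxifen exposure. No variance between mice could be estimated and no test between genotypes was possible. Each interval below is a 95% interval that covers counting error alone. No miRNA reports the deletion of the receptor, so the tables hold no direct check of the labels. Which table belongs to which genotype is in doubt. The study's own account of these libraries, both for most miRNAs and for several erythroid ones, runs in the opposite direction to the labelled tables. For most miRNAs, this rests on the rarer ones. Of the 118 miRNAs with a mean count over 1000, 70 were lower in the iFIRKO-labelled library. For several erythroid miRNAs, the study also reported an increase in iFIRKO mice by quantitative RT-PCR of individual serum samples. The labels are followed here, the libraries are called by their labels, and exchanged labels would turn every ratio and odds ratio into its inverse, so that each higher value would be a lower one. In such bulk samples, fewer vesicles of a kind and less RNA per vesicle cannot be told apart.

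The control-labelled library had a depth of 3817902 counts and the iFIRKO-labelled library 2233498 counts, a 1.71-fold difference. Entries at the lowest value of a table were read as a count under 10, and 1736 miRNAs were above this floor in both libraries. Levels are given as counts and as counts per 1000000 of the depth (CPM). A ratio is the iFIRKO level divided by the control level on the deposited scale. Other scalings divide each ratio by 1 factor, among them TMM (trimmed mean of M values), which takes the bulk of the miRNAs as unchanged and had a divisor of 1.81.

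The 3p arms of the family are the strands that are mainly loaded into Argonaute, and they pair with messenger RNAs through bases 2 to 8, the seed. They are best known for repressing collagens and other genes of the extracellular matrix. They are also tied to insulin action: miR-29 levels are raised in tissues of insulin-resistant rodents, and an excess of miR-29 in cultured adipocytes blunts the uptake of glucose in response to insulin. The 5p arms are the partner strands of the same hairpins, most of which are degraded.

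The mature sequences from RefSeq (GRCm38.p6) are shown to make visible how the arms differ. The seed is in capitals. First come the 3p arms.
miR-29a-3p: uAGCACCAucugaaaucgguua
miR-29b-3p: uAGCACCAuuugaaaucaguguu
miR-29c-3p: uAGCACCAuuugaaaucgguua
The 5p arms follow, and no seed is shared between any of them.
miR-29a-5p: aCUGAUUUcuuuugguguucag
miR-29b-1-5p: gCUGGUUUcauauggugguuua
miR-29b-2-5p: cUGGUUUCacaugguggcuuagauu
miR-29c-5p: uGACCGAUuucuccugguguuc

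All 3 of the 3p arms carried the seed AGCACCA, and no other miRNA with a RefSeq sequence in the tables had it. Counted from the 5′ end, miR-29a-3p and miR-29c-3p differed at 1 base of 22 (C10U). How the authors assigned reads that match both with a mismatch is not given in the sources used here, so the split between them is uncertain to that extent. From miR-29c-3p to miR-29b-3p the differences were G18A, U21G and A22U, and miR-29b-3p was 1 base longer. miR-29b-3p ended in AGUGUU, a hexamer known for directing this miRNA to the nucleus, and it was the only member with that motif, which 12 of the 1592 listed miRNAs with a RefSeq sequence (0.754%) held. The motifs GGAG and CCCU, known from the sorting of miRNAs into vesicles, were searched on the RNA strand and occurred in 0 of 7 members, against 14.4% and 11.7% of the 1592 miRNAs. Among the 5p arms, miR-29b-1-5p and miR-29b-2-5p shared the run CUGGUUUCA, which starts at base 2 in the former and at base 1 in the latter, so that their seeds are offset. The seed of miR-29b-2-5p was shared with miR-6338, which was at the floor in the control-labelled library and had 11 counts in the iFIRKO-labelled library.

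The hairpins lie in a pair of clusters (GRCm38). Mir29a is on chromosome 6 from 31062660 to 31062747 on the minus strand, outside other annotated genes, and Mir29b-1 lies 275 bases away at 31063023 to 31063093, where its end overlaps an exon of the long noncoding RNA Gm27019 by 2 bases. Mir29b-2 occupies bases 195037040 to 195037120 of chromosome 1, plus strand, and Mir29c follows after 426 bases at 195037547 to 195037634. Both lie within an exon of the noncoding transcript A330023F24Rik on the same strand, and opposite to an untranslated part of an exon of Cd46. miR-29b-3p is made from both clusters and cannot be assigned to either, whereas the other 6 members each have a single hairpin.

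To compare the 3p arms between the libraries, their levels were examined first. The family was dominated by miR-29a-3p, and on the deposited scale it was the 3p arm that differed between the libraries, being higher in the iFIRKO-labelled library, although with TMM scaling its ratio turned to 0.700. mmu-miR-29a-3p had 79398 counts (20796 CPM) in the control-labelled library and 58777 counts (26316 CPM) in the iFIRKO-labelled library, a ratio of 1.27 (1.25 to 1.28). It was the 10th most abundant miRNA in the control-labelled library and the 5th in the iFIRKO-labelled library. For mmu-miR-29c-3p, 8106 control counts (2123 CPM) stood against 4807 iFIRKO counts (2152 CPM), and the ratio was 1.01 (0.978 to 1.05). For mmu-miR-29b-3p, 7484 control counts (1960 CPM) stood against 4395 iFIRKO counts (1968 CPM), and its log2 ratio was 0.0055, with an interval of the ratio from 0.967 to 1.04. The intervals of miR-29b-3p and miR-29c-3p included 1, and that of miR-29a-3p did not. The summed 3p arms took 2.49% of the control-labelled library and 3.04% of the iFIRKO-labelled library, a ratio of 1.22 (1.21 to 1.24), which came from miR-29a-3p, since the sum without it had a ratio of 1.01.

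None of the 3p arms passed the 1.5-fold threshold of the study on the deposited scale, but with TMM scaling miR-29b-3p (0.555) and miR-29c-3p (0.561) were over 1.5-fold lower. Over all miRNAs, 66.3% were over 1.5-fold higher and 3.03% over 1.5-fold lower in the iFIRKO-labelled library, but most miRNAs are rare and the ratio depends on abundance. This split also depends on the scaling, since 1225 miRNAs were higher and 56 lower on the deposited scale, against 388 and 360 with TMM factors. Exchanged labels would swap higher and lower in both. Among the 118 miRNAs with a mean count over 1000, only 2.54% were over 1.5-fold higher and the median log2 ratio was -0.07. In this class 8 miRNAs had a higher ratio than miR-29a-3p, 44 a higher ratio than miR-29c-3p and 45 a higher ratio than miR-29b-3p. Of the 14 miRNAs within 2-fold of the mean count of miR-29a-3p, 0 had a higher ratio, and their median log2 ratio was -0.10 against 0.34 for miR-29a-3p. The 3 nearest in ratio were miR-191-5p (1.24), miR-140-3p (1.19) and miR-21a-5p (1.07), a likeness that rests on 2 libraries.

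**Figure D1:**
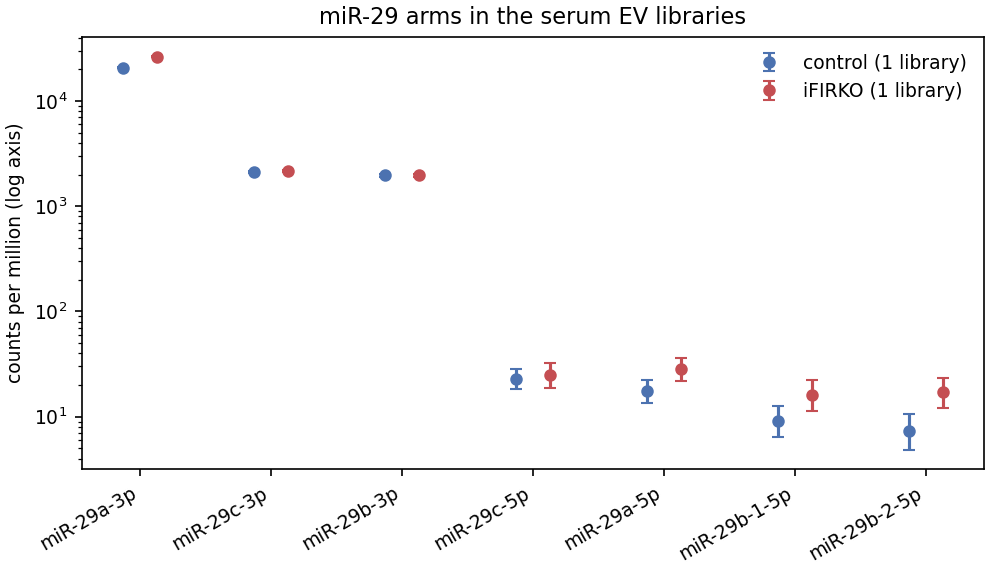
Levels of the 7 miR-29 arms in CPM (log axis), with 1 point per library and bars for the exact 95% interval from counting error. The 3p arms lie far above the 5p arms. On this scale the points of miR-29b-3p and miR-29c-3p coincide between the libraries, but with TMM scaling their ratios are 0.555 and 0.561. The point of miR-29a-3p is higher in the iFIRKO-labelled library (26316 against 20796 CPM, but a ratio of 0.700 with TMM scaling).

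The 5p arms were rare, with 28 to 88 counts each, and 3 of 4 were over 1.5-fold higher in the iFIRKO-labelled library on the deposited scale, but 0 of 4 with TMM scaling. mmu-miR-29b-2-5p had 28 counts (7.33 CPM) in the control-labelled library and 38 counts (17.0 CPM) in the iFIRKO-labelled library, a ratio of 2.32 (1.39 to 3.92). For mmu-miR-29b-1-5p, 35 control counts (9.17 CPM) stood against 36 iFIRKO counts (16.1 CPM), and the ratio was 1.76 (1.07 to 2.88). For mmu-miR-29a-5p, the values were 67 control counts (17.5 CPM) and 63 iFIRKO counts (28.2 CPM), and the ratio was 1.61 (1.12 to 2.30). These 3 intervals lay above 1 on the deposited scale, whereas with TMM scaling the ratios of miR-29a-5p and miR-29b-1-5p were 0.889 and 0.973. For mmu-miR-29c-5p, with 88 counts (23.0 CPM) and 56 counts (25.1 CPM), the ratio was 1.09 and the interval of 0.764 to 1.54 included 1.

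A share of 3 in 4 is close to the background of rare miRNAs. In the class with a mean count from 10 to 100, which holds all 4 of the 5p arms, 76.7% of 1350 miRNAs were over 1.5-fold higher, and their median log2 ratio was 1.01. The log2 ratios of the 5p arms ran from 0.12 to 1.21 with a median of 0.75. Only miR-29b-2-5p was above the median of the class, and 1271 of the 1350 miRNAs had a higher ratio than miR-29c-5p. All 7 members had a ratio above 1 on the deposited scale and 1 of them with TMM scaling. This is close to the background, since 1627 of all 1847 miRNAs, and 1298 of the 1350 in the class of the 5p arms, had a ratio above 1. In the class of the 3p arms 48 of 118 did. On the deposited scale, 4 of the 7 members had an interval above 1, against 62.7% of the 1736 miRNAs that cleared the floor in each library.

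**Figure D2:**
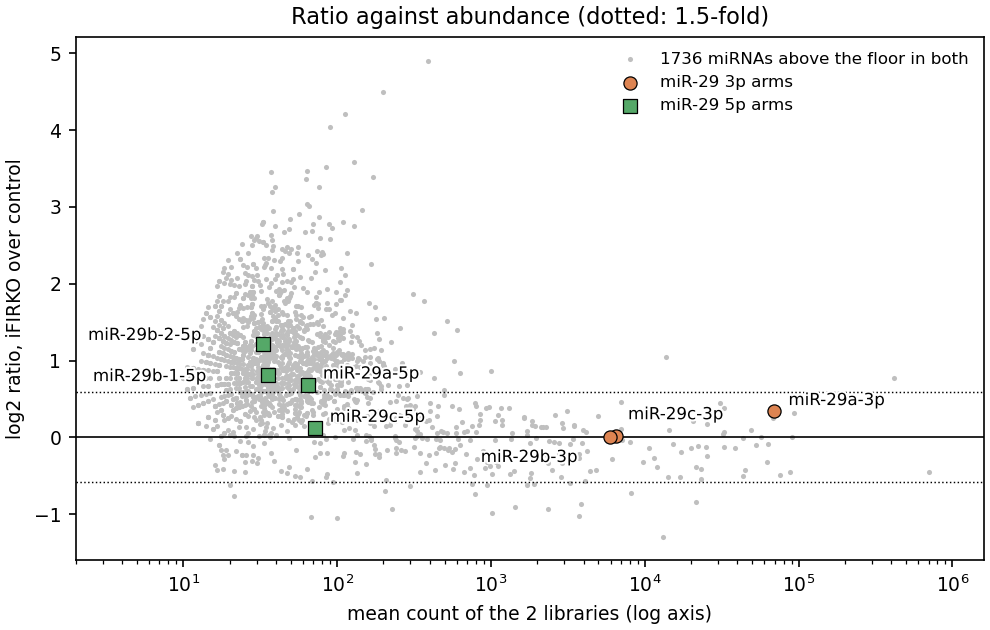
The log2 ratio of iFIRKO to control against the mean count of the 2 libraries (log axis), with a grey point for each of 1736 miRNAs that cleared the floor in each library and dotted lines at 1.5-fold. The 5p arms (squares) sit inside the cloud of rare miRNAs with ratios mostly above 1, and miR-29a-3p (circle) sits near the upper edge of the abundant miRNAs at 0.34 (its ratio is 0.700 with TMM scaling).

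Because 1 factor per library scales every miRNA alike, the balance between members was examined next, which no such factor can change. A scaling that varies with abundance was not applied and could change the balance between abundant and rare arms. The median log2 ratio was 1.01 at a mean count of 10 to 100 and -0.07 over 1000. miR-29a-3p made up 83.6% (83.4 to 83.8) of the 3p counts of the family in the control-labelled library and 86.5% (86.2 to 86.7) in the iFIRKO-labelled library. miR-29c-3p made up 8.53% and 7.07%, and miR-29b-3p 7.88% and 6.47%. There were 9.79 counts of miR-29a-3p per count of miR-29c-3p in the control-labelled library and 12.2 in the iFIRKO-labelled library, an odds ratio of 1.25 (1.20 to 1.30). Against miR-29b-3p the odds ratio was 1.26 (1.21 to 1.31). The balance of miR-29b-3p to miR-29c-3p was 0.923 in the control-labelled library and 0.914 in the iFIRKO-labelled library, an odds ratio of 0.99 (0.940 to 1.04), whose interval included 1.

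The 5p arms allow the same comparison between the clusters on far fewer counts. miR-29a-5p to miR-29c-5p was 0.761 in the control-labelled library and 1.13 in the iFIRKO-labelled library, an odds ratio of 1.48 (0.889 to 2.46). The 5p arms of the chromosome 6 cluster against those of the chromosome 1 cluster gave an odds ratio of 1.20 (0.798 to 1.80). Both estimates lie on the side of miR-29a-3p against miR-29c-3p, but they share the counts of miR-29a-5p and miR-29c-5p. The balance of miR-29b-1-5p to miR-29b-2-5p lies on the other side, with an odds ratio of 0.759 (0.365 to 1.57). All of these intervals include 1, and a difference was not detectable at this depth. Summed over the arms that can be assigned, the Mir29a/Mir29b-1 hairpins had a ratio of 1.27 (1.25 to 1.28) and the Mir29c/Mir29b-2 hairpins 1.02 (0.983 to 1.06). Nearly all of those counts are miR-29a-3p and miR-29c-3p.

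Within the hairpins, the 3p arm prevailed in both libraries. It held 99.92% of the counts of Mir29a in the control-labelled library and 99.89% in the iFIRKO-labelled library, and 98.93% and 98.85% of those of Mir29c. For miR-29b, with both 5p arms summed, the shares were 99.17% (98.93 to 99.36) and 98.34% (97.93 to 98.70). Of 492 hairpins with both arms above the floor and each arm made by that hairpin alone, 0 had a higher 3p share in the control-labelled library than Mir29a, and 11 had a higher one than Mir29c. The odds of 3p to 5p in the iFIRKO-labelled library relative to control were 0.50 (0.351 to 0.711) for miR-29b, 0.787 (0.550 to 1.13) for miR-29a and 0.932 (0.658 to 1.33) for miR-29c. Only the interval of miR-29b stayed below 1.

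A gain of the minor arm was common among hairpins of this kind. In 31 hairpins with a major arm over a mean count of 1000 and a minor arm from 10 to 100, Mir29a and Mir29c among them, the minor arm had gained on the major arm in 27, with a median of 0.70 on the log2 scale. The gain was 0.35 for Mir29a, 0.10 for Mir29c and 1.0 for miR-29b, which 22, 25 and 9 of the 31 hairpins exceeded.

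**Figure D3:**
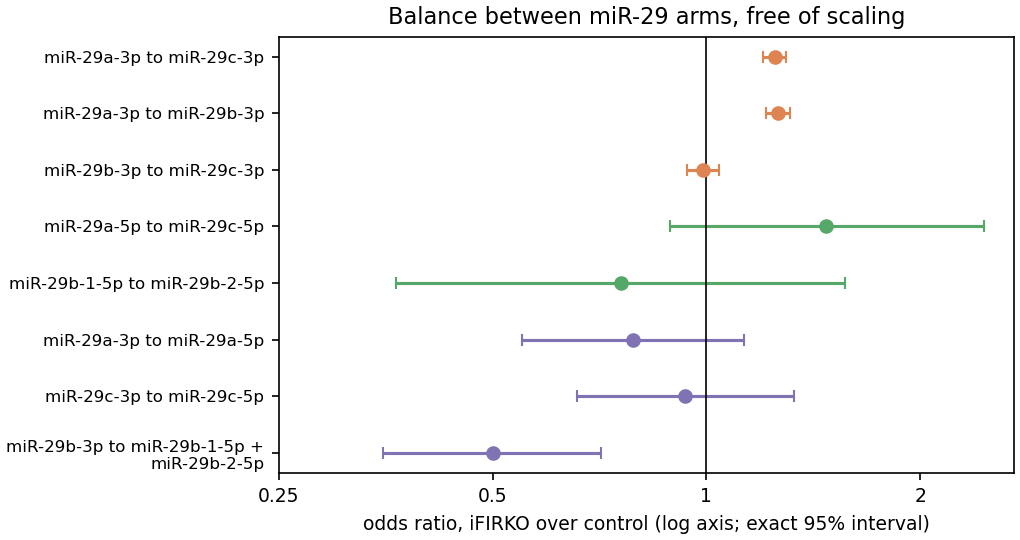
Odds ratios of iFIRKO over control (log axis, exact 95% interval) for the balance between 3p arms (orange), between 5p arms (green) and of 3p to 5p within a miRNA (purple). miR-29a-3p gained on both other 3p arms (1.25 and 1.26), the balance of miR-29b-3p to miR-29c-3p has an interval of 0.940 to 1.04, and miR-29b shifted towards its 5p arms (0.351 to 0.711).

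The direction of a single ratio depended on the scaling. Relative to miR-148a-3p, which the study used as a reference and which had 6423 CPM in the control-labelled library and 7479 CPM in the iFIRKO-labelled library, miR-29a-3p had a ratio of 1.09, miR-29c-3p 0.871 and miR-29b-3p 0.862. With a factor set by the median ratio among miRNAs whose mean count reached 100, the ratios were 1.05, 0.843 and 0.835 in the same order. With TMM factors, which lower every log2 ratio by 0.85, they were 0.700, 0.561 and 0.555, and miR-29b-2-5p (1.28) alone stayed above 1. The order of the 7 members is the same under every factor.

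**Figure D4:**
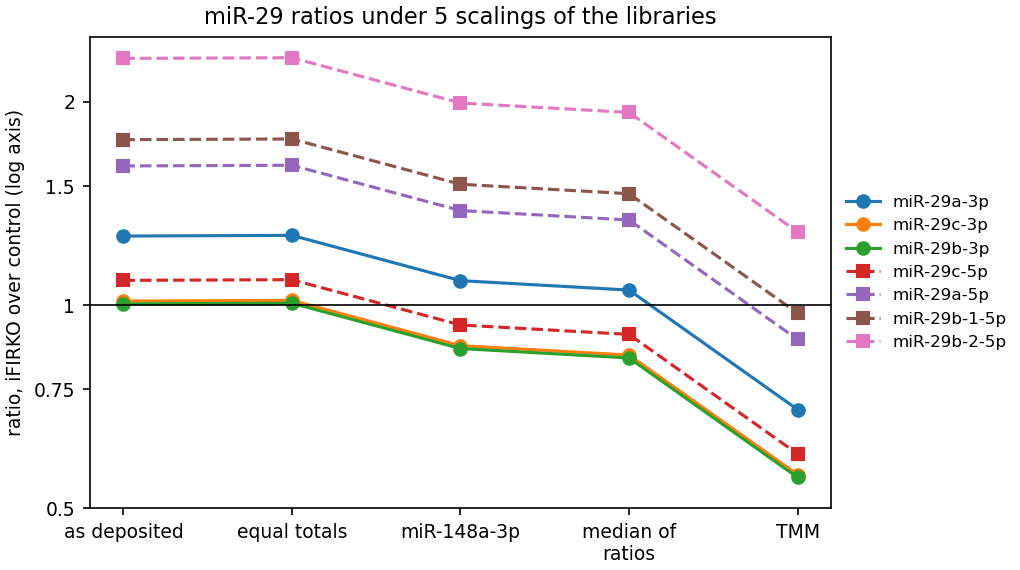
Ratios of the 7 miR-29 arms (log axis, iFIRKO over control) under 5 scalings of the libraries, with solid lines for 3p and dashed lines for 5p arms. The lines run in parallel, miR-29a-3p stays above 1 under all scalings except TMM (0.700), and miR-29b-3p and miR-29c-3p pass below 1 once miR-148a-3p or the median of ratios sets the scale.

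The spread within the family was then set beside that of other families defined by a shared seed. With at least 3 members at a mean count of 100 or more, 12 seed families were found among the miRNAs with a RefSeq sequence. The log2 ratios of the miR-29 family spanned 0.33, the 5th smallest range, against a median range of 0.40. A range tends to grow with the number of members, and among the 6 families with exactly 3 members it was the 4th smallest. The ranges ran from 0.16 in the miR-99a-5p family to 1.16 in the miR-30a-5p family. All members were higher in the iFIRKO-labelled library on the deposited scale in the miR-29 and miR-99a-5p families, whereas with TMM all members of both families were lower, and the 2 lowest miR-29 values were within counting error of 0.

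**Figure D5:**
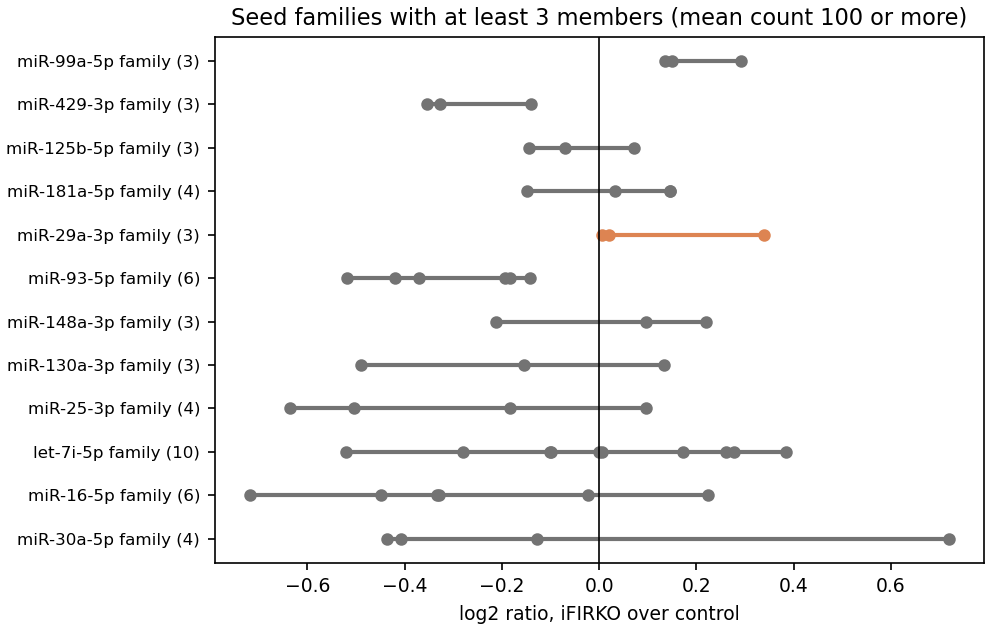
Log2 ratios of iFIRKO to control for the members of 12 seed families, each named by its most abundant member with the number of members in parentheses and sorted by range. The miR-29 family (orange) spans 0.33, with miR-29b-3p and miR-29c-3p close to 0 and miR-29a-3p at 0.34.

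Other miRNAs tied to insulin signalling were examined as a list. Of 11 miRNAs, 0 were over 1.5-fold higher or lower, 7 had a ratio above 1 and 4 below 1 on the deposited scale (all 11 below 1 with TMM), and the median log2 ratio was 0.15, against 0.88 over all miRNAs and -0.07 in the class of miRNAs with a mean count over 1000. The ratios ran from 0.710 for miR-126a-3p, an endothelial miRNA, to 1.47 for miR-33-5p, which lies within the gene of a sterol regulator. miR-103-3p and miR-107-3p, regulators of insulin sensitivity that share a seed, had ratios of 1.05 and 1.14 on the deposited scale, both under the 1.16 of miR-148a-3p. Of 6 miRNAs tied to the extracellular matrix, 3 had a ratio above 1 and 3 below 1 (all 6 below 1 with TMM). Their ratios ran from 0.739 for miR-30c-5p to 1.39 for miR-214-3p, with a median log2 ratio of -0.05. Over all miRNAs, 1627 of 1847 had a ratio above 1 on the deposited scale, and 48 of the 118 with a mean count over 1000 did.

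miRNAs that mark possible source cells differed between the libraries as well. All 4 hepatocyte miRNAs were higher in the iFIRKO-labelled library on the deposited scale, with ratios from 1.35 for miR-122-3p to 1.71 for miR-122-5p. These ratios were all below the TMM divisor, so lower on that scale. The summed share of the 4 was 12.1% of the control-labelled library and 20.2% of the iFIRKO-labelled library. As background for this and the lists below, 1627 of all 1847 miRNAs had a ratio above 1 on the deposited scale. By mean count, 236 of 302 did from 100 to 1000, and 48 of 118 over 1000. The 6 erythroid miRNAs were all lower in the iFIRKO-labelled library, the opposite of the direction the study describes for several of them. Their ratios ran from 0.409 for miR-451a to 0.760 for miR-144-5p. Their summed shares were 27.5% and 19.9% of the libraries, of which miR-16-5p alone made up 26.0% and 19.1%. All 6 leukocyte miRNAs were lower, from 0.799 for miR-223-3p to 0.964 for miR-142a-5p, but the intervals of miR-142a-5p and miR-155-5p included 1. In the class with a mean count over 1000, which holds all of them but miR-155-5p, 70 of 118 miRNAs were lower. Of the 4 adipocyte miRNAs, 2 were higher and 2 lower on the deposited scale (all lower with TMM), from 0.855 for miR-365-3p to 1.46 for miR-193b-3p. The value of miR-193b-3p rests on 27 control and 23 iFIRKO counts (0.798 to 2.64), and the interval of miR-455-3p also included 1. The 4 held 0.177% and 0.207% of the libraries, most of which was miR-378a-3p (0.153% and 0.186%). Ratios above 1 were seen for 1 of 3 muscle and 2 of 5 mesenchymal miRNAs on the deposited scale (0 with TMM). All of these were above the floor in both libraries. miR-29 is made in many tissues, and the part of these shifts in the miR-29 values was not tested.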

How the data were processed

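Small RNA was sequenced from EVs of pooled serum, in 1 control and 1 iFIRKO library. EV RNA was isolated with the miRCURY Exosome Serum/Plasma and miRNeasy Micro kits. The authors prepared libraries with the QIAseq miRNA kit and processed the sequencing output in the GeneGlobe portal of Qiagen. The labels name mm10. The aligner, miRNA release and use of molecular identifiers are not given in the sources used here.

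The deposited value is a normalized signal per miRNA. In each table, 100% of the values were whole counts (within 0.01) after multiplication by 1 constant, 3817902 for control and 2233498 for iFIRKO, which was taken as the depth. The listed counts made up 99.3% and 99.1% of it. Counts of 2 to 9 were absent, and 76 and 35 entries at the lowest value were treated as under 10. Reads may not be independent molecules, so intervals cover counting error only.

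Ratios carry exact Clopper-Pearson intervals, and balances carry conditional odds ratios with exact intervals (scipy 1.17.1). The functions were tested on simulated data. Seeds and sequences came from RefSeq, which held 1592 of the 1847 miRNAs. TMM factors came from edgeR 4.0.16 in R 4.3.3. Alternatives were scaling, a pseudocount of 1 CPM, filters on mean count, the floor at 10 counts, a 2-fold threshold and which members were summed. All 7 members are named, together with the reference, the 3 miRNAs nearest in ratio to the most abundant member and the extremes of each list. miR-103-3p and miR-107-3p were added after their values were seen. Members and lists were chosen with earlier results of these data known. In the annotation, GENCODE M21 was used.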

Additional observations from a re-analysis of the deposited data

How the results depend on the processing

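No paired analysis was possible because only 1 library represents a genotype, and for the same reason no library could be left out. Of the alternative values, 56 stayed inside the 95% counting interval of the value reported (for counts of miRNAs, within 1.5-fold of it). Another 29 moved beyond that. A further 6 turned round, all with TMM, counting only ratios whose reported interval excluded 1. Ratios whose interval included 1 were not counted, although they also passed below 1 when scaled by median ratio, miR-148a-3p or TMM. These were miR-29b-3p (0.835, 0.862 and 0.555), miR-29c-3p (0.843, 0.871 and 0.561), miR-29c-5p (0.905, 0.934 and 0.602) and the Mir29c/Mir29b-2 hairpins. With TMM the ratio was 0.700 for miR-29a-3p, 0.889 for miR-29a-5p, 0.973 for miR-29b-1-5p, 0.677 for the summed 3p arms, 0.837 for the summed 5p arms, 0.700 for the Mir29a/Mir29b-1 hairpins and 0.564 for the Mir29c/Mir29b-2 hairpins. Scaled by median ratio or by miR-148a-3p, the summed 3p arms had ratios of 1.02 and 1.05, the Mir29a/Mir29b-1 hairpins 1.05 and 1.09, and the Mir29c/Mir29b-2 hairpins 0.847 and 0.875. These shifts follow from 1 factor per scaling. The ratio of the summed 3p arms was 1.01 without miR-29a-3p, 1.24 without miR-29b-3p and 1.24 without miR-29c-3p. The odds ratio of miR-29a-3p against the rest moved from 1.254 to 1.248 without miR-29b-3p, and that of miR-29b-3p against its 5p arm was 0.571 with miR-29b-1-5p and 0.433 with miR-29b-2-5p alone.

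Of all miRNAs, 1225 were over 1.5-fold higher and 56 lower in the iFIRKO-labelled library. Exchanged labels, which the study's account of the direction leaves possible, would swap higher and lower in this and each count below. With TMM 388 were higher and 360 lower. At a mean count of at least 100, which left fewer miRNAs, 145 were higher and 18 lower, and at 10 or more 24 were lower. A 2-fold threshold gave 794 higher. The lower miRNAs numbered 113 when scaled by median ratio, 102 when scaled by miR-148a-3p, and 22 when floor entries were set to 10 counts. Fisher's exact test on the counts, with Benjamini-Hochberg adjustment over 1736 miRNAs and a threshold of 0.05, compares 2 libraries and not the genotypes. It called 1050 higher and 84 lower, and among the members miR-29a-3p, miR-29a-5p, miR-29b-1-5p and miR-29b-2-5p. Depth limits the 5p arms most.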
